A study of Homo sapiens with 4 samples.

Results

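Integrins are heterodimeric receptors, each made of an alpha and a beta chain, that tie cells to the extracellular matrix and to the actin or keratin cytoskeleton. The alpha3 and alpha6 chains form laminin receptors with beta1, and alpha6 also pairs with beta4 in hemidesmosomes, while alpha2 with beta1 binds collagen and alphaV with beta5 binds vitronectin. N6-methyladenosine (m6A), the most abundant internal mark of messenger RNA, is written by the METTL3 complex, removed by ALKBH5 and FTO, and known to lie often near stop codons and in the 3′ part of transcripts. The listed m6A peaks of 7 integrin genes (ITGA3, ITGB1, ITGA6, ITGB4, ITGAV, ITGA2 and ITGB5) are described here. A peak belonged to a gene when its summit lay inside a gene span given on hg19 to the nearest kb, and this gave 42 of 115281 peaks, 16 of 52188 in the CDCA list and 26 of 63093 in the control list. The genes were selected on the listed significance and fold enrichment of their peaks, that of ITGA3 above all, so the strength of those peaks is a description.

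The treated cells were GES-1, an established human gastric epithelial cell line, given chenodeoxycholic acid (CDCA), a primary bile acid, at 100 µM for 48 h, and the control cells were the same line with no treatment. Both were grown in RPMI-1640, and the series, which asks how m6A sites differ under CDCA, holds an input and an m6A immunoprecipitation (MeRIP) library of each. The peak lists of the 2 MeRIP libraries were analysed, with 1 library per condition, so no test between conditions was possible. A difference between the lists cannot be told apart from variation between libraries or cultures. Cell identity was not checked, since the lists hold peaks and no expression values.

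For each peak the authors give a height at the summit, a fold enrichment over local background and a −log10 q, and all 3 serve here to describe and rank peaks. The lists end at a fold enrichment of 6. Heights came in steps of 0.640 in the CDCA list and 0.862 in the control list, with 100% of peaks within 0.02 steps of a whole number, and a step is taken here as 1 fragment. The weakest integrin peak then rested on 18 fragments in the CDCA list and 17 in the control list. Depth in reads is otherwise unknown. Intervals are exact 95% intervals (Clopper-Pearson for shares, Poisson for fragments) and cover counting error only.

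Strong m6A peaks (−log10 q of 50 or more) were found in ITGA3, ITGB1 and ITGA6 in CDCA-treated cells, and in these genes and ITGB5 in control cells. ITGAV and ITGA2 held weaker peaks, and no peak was listed in ITGB4 in either library. Strong peaks were 4 of the 16 integrin peaks in the CDCA list (25%) and 6 of the 26 in the control list (23.1%). Over all peaks the shares were 13.4% in the CDCA list and 15.3% in the control list. The genes were selected on peak significance, and the level of 50 was set with earlier results known, so no difference is read from these shares. All 7 genes had fewer or equal numbers of peaks in the CDCA list. The integrin total there was 61.5% of the control total (30.8 to 119), against 82.7% (81.8 to 83.7) for all peaks. Of the CDCA peaks, 4 of 16 overlapped a control peak by at least 1 bp (25%, 7.27 to 52.4), against 22.2% of all CDCA peaks. Of the control peaks, 4 of 26 overlapped a CDCA peak (15.4%, 4.36 to 34.9), against 18.2% of all control peaks. Both shares are near those of the whole lists.

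**Figure D1:**
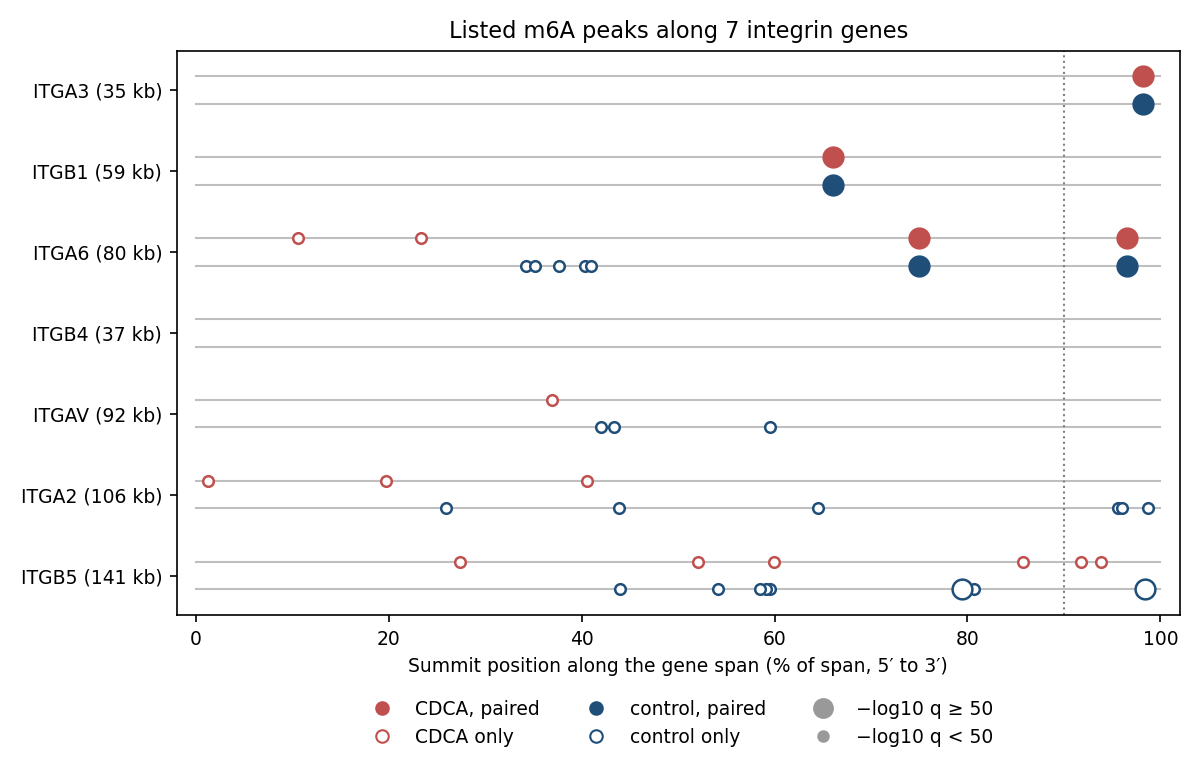
Place of each listed peak along the 7 gene spans, in percent of the span from the 5′ to the 3′ edge, with the CDCA library on the upper line of each gene and the control library on the lower. Filled circles are peaks that overlap one another across the libraries, large circles have a −log10 q of at least 50, and the dotted line marks the last 10% of the span. The 4 paired sites lie in ITGA3, ITGB1 and ITGA6, and ITGB4 has none.

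The laminin receptor chain ITGA3 carried 1 m6A peak, at the 3′ end of the gene, of nearly the same outline in both cell populations. The peak ran from 48166448 to 48167838 on chromosome 17 in CDCA-treated cells and from 48166452 to 48167837 in control cells, and it was 1391 bp long in CDCA and 1386 bp in control. The summits lay 2 bp apart, 634 bp inside the 3′ edge of the span in CDCA and 636 bp in control. Shared bases made up 99.6% of the joint length of the pair. That percentage was at or above the one of 99.9% of all 11209 paired sites, whose median was 64.3%. Among pairs with a −log10 q of at least 50 in both lists, as here, the median was higher, 76.7%. The site stood second by −log10 q in each list, with 12561 in CDCA and 14867 in control.

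Fold enrichment at the ITGA3 site was 99.8 in CDCA-treated cells and 89.4 in control cells. The summit height behind it was 7980.2 in the CDCA list and 9745 in the control list, and the local background 79 in the CDCA list and 108 in the control list. The fold was thus higher in the CDCA list by a ratio of 1.12, while the height was lower by a ratio of 0.819. Heights carry the scaling of each list: in steps, the summit held 12476 fragments in CDCA and 11299 in control, without scaling to the depth of either library. The direction at ITGA3 therefore depends on the measure used. Local background, recovered from height and fold, was within 0.01 of a whole number at 76.7% of CDCA and 75.7% of control peaks with a background of at least 10. It is treated below as a fragment count, in whole units where it was whole and otherwise in steps of 0.2. Counted in steps of 0.2 instead, a whole background would give a narrower range, which was not worked out. With the counting error of that background, the ITGA3 fold ran from 80.2 to 126 in CDCA and from 74.2 to 109 in control, and these ranges overlap. Among all paired sites the ITGA3 ratio stood at the 64.0th percentile.

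ITGA6, the chain shared by the beta1 and beta4 laminin receptors, carried 2 strong sites that were listed in both cell populations. The first, here called the 3′ site, lay on chromosome 2 at 173368962 to 173369459 in CDCA and 173368965 to 173369440 in control, with its summit 2796 bp inside the 3′ edge in CDCA and 2809 bp in control. Its fold enrichment was 21.9 in CDCA and 18.5 in control, on a summit height of 4054.7 in CDCA and 3619.8 in control. The −log10 q was 3762 in CDCA, rank 34 of its list, and 3102 in control, rank 56. With the counting error of the background, the fold ran from 19.0 to 25.4 in CDCA and from 16.1 to 21.4 in control, so the ranges overlap.

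The internal ITGA6 site differed most among the integrin pairs. It lay at 173351775 to 173352142 in CDCA and at 173351832 to 173352134 in control, about 75% of the way along the span. Its fold enrichment was 18.5 in CDCA-treated cells and 7.31 in control cells, a ratio of 2.53. The control value is not far above 6, the lowest fold that the lists hold. Summit height was 372 in CDCA and 204 in control, while background was 19.2 in CDCA and 27.0 in control. The fold ran from 15.3 to 22.6 in CDCA and from 5.08 to 10.9 in control over the counting error of the background alone. These ranges do not overlap, and with the CDCA background counted in whole fragments its lower end was 12.1, above that control range. They leave out the counting error of the summit height, 343 to 404 in CDCA and 178 to 231 in control. Whether the ranges meet with both errors joined was not worked out. This ratio stood at the 95.9th percentile of all paired sites, and 18.6% of all pairs were at least 1.5 times higher in CDCA. Of the 4 integrin pairs, 1 passed that level. Within ITGA6 the fold ratio between the libraries was 2.53 at the internal site against 1.19 at the 3′ site of the same gene. With 1 library per condition the gap between the 2 ratios was not tested.

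The common beta chain ITGB1, partner of the alpha2, alpha3 and alpha6 chains, carried 1 site in each list and had the only lower fold in CDCA among the integrin pairs. It lay on chromosome 10 at 33208797 to 33209479 in CDCA and at 33208870 to 33209429 in control, 66.0% along the span and 20032 bp from its 3′ edge in CDCA. Fold enrichment was 6.97 in CDCA-treated cells and 9.70 in control cells, a ratio of 0.719. Summit height was 537 in CDCA and 814 in control, and background 76.2 in CDCA and 83.0 in control. The fold ran from 6.31 to 7.72 in CDCA and from 7.85 to 12.1 in control over the counting error of the background alone, with the CDCA background counted in steps of 0.2. With it counted in whole fragments, the CDCA fold ran from 5.59 to 8.82, which meets the control range, so whether the ranges meet depends on that choice. Over all paired sites, 27.2% were at least 1.5 times lower in CDCA, a level that no integrin pair reached. The ITGB1 ratio stood at the 31.6th percentile, and the CDCA value is close to the lowest fold that the lists hold.

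**Figure D2:**
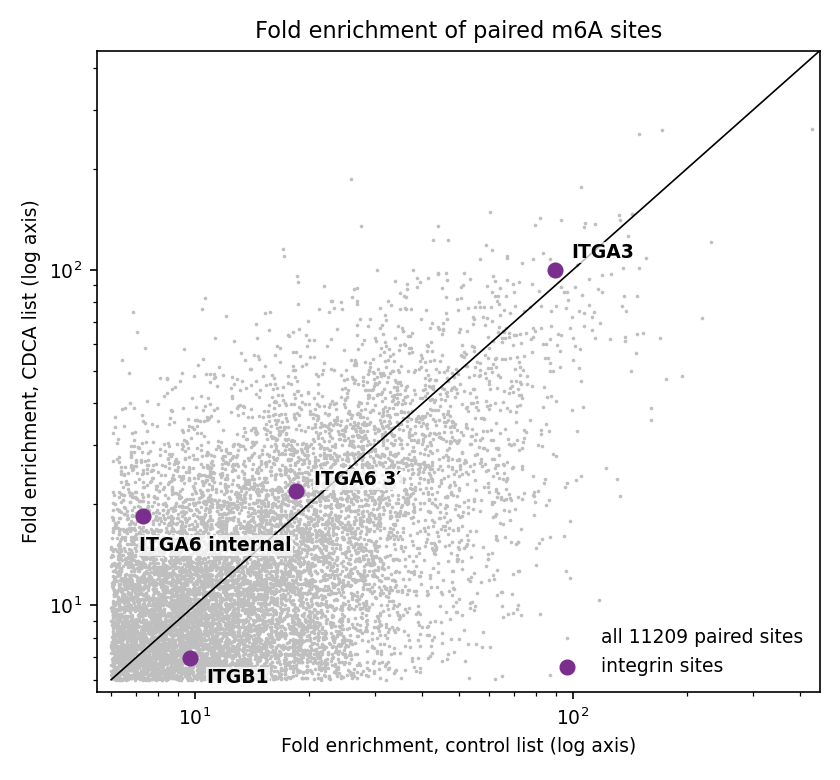
Fold enrichment of paired sites in the CDCA list (vertical, log axis) against the control list (horizontal, log axis), with all 11209 pairs in grey, the 4 integrin pairs in purple and equality as a line. ITGA3 and the ITGA6 3′ site lie just above the line, the internal ITGA6 site well above it at 18.5 in CDCA and 7.31 in control, and ITGB1 below it at 6.97 in CDCA and 9.70 in control.

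Of the 4 integrin pairs, 3 had the higher fold in CDCA (75%, 19.4 to 99.4), against 44.3% of all pairs. All 4 had a −log10 q of at least 50 in both lists. Of all such pairs 47.5% were higher in CDCA, with a median ratio of 0.965. Over all pairs the median ratio was 0.928, a shift of −0.11 on the log2 scale. Relative to that shift the log2 ratio was 0.27 at ITGA3, −0.37 at ITGB1, 1.45 at the internal ITGA6 site and 0.35 at the ITGA6 3′ site. This step raises every ratio, so positive signs could not change, and that of ITGB1 stayed negative. Local background was lower in CDCA at all 4 integrin pairs, by ratios of 0.711 to 0.944. It was lower in CDCA at 61.8% of all pairs, whose median background ratio was 0.933. At pairs with a −log10 q of at least 50 in both lists it was lower at 57.8%. Summit height was higher in CDCA at 2 of the 4 integrin pairs, the 2 sites of ITGA6, and at 36.1% of all pairs, whose median height ratio was 0.849. The share this background has in the fold ratios was not tested.

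**Figure D3:**
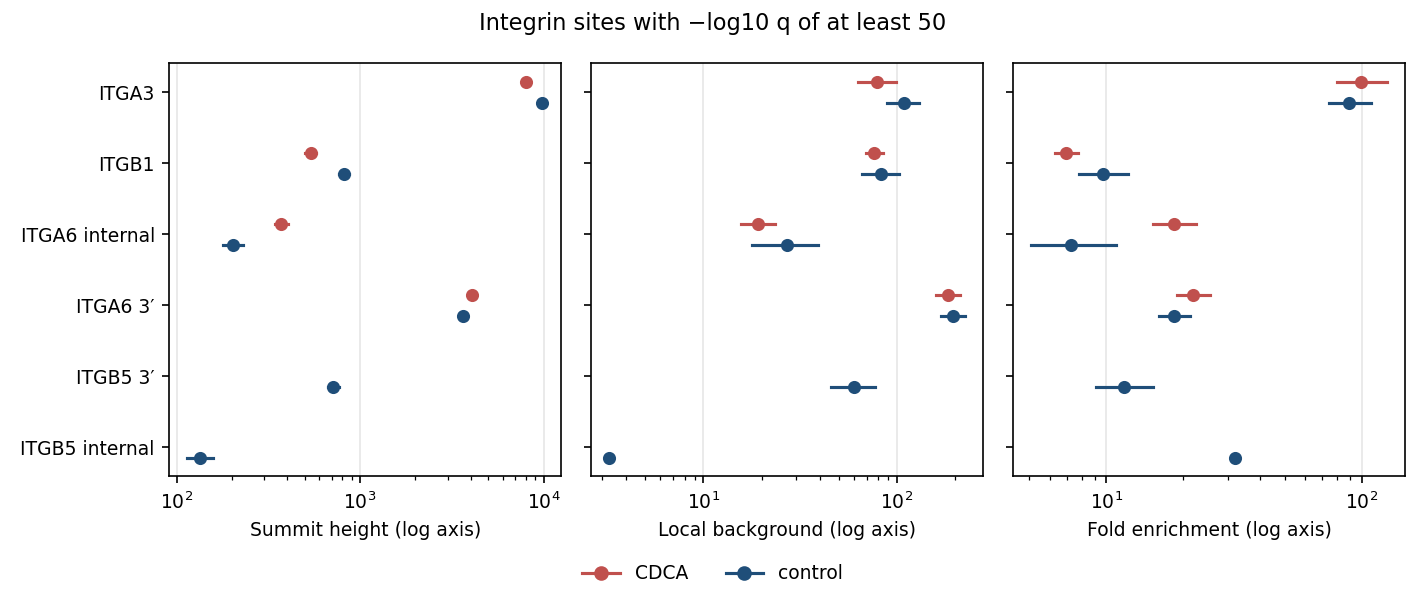
Summit height, local background and fold enrichment (log axes) at the 6 integrin sites that reach a −log10 q of 50 in either list, with CDCA above control. Bars are exact 95% Poisson intervals of the fragment number, for fold those from the background alone, and none is drawn where the background is under 10. Fold intervals overlap at ITGA3 and the ITGA6 3′ site and are apart at the internal ITGA6 site, while the gap at ITGB1 closes when the CDCA background is counted in whole fragments.

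ITGB5, the partner of alphaV in the vitronectin receptor, had 2 strong sites, both listed in control cells alone. The 3′ site lay on chromosome 3 at 124482096 to 124482547, 2288 bp inside the 3′ edge, with a fold of 11.7, a height of 715 and a −log10 q of 483. The internal site at 124508870 to 124509665 was 796 bp long and had a fold of 31.8, a height of 135 and a −log10 q of 159. It stood on a background of 3.26, against 60 at the 3′ site. The nearest CDCA peak was 6014 bp from the 3′ site and 8627 bp from the internal one.

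A missing entry in the CDCA list does not show that the mark was absent at these ITGB5 sites. Both lists skip peak numbers. That a skipped number stands for a peak called and then left out is an assumption here, with no source that states it. Between the CDCA peaks on either side of the ITGB5 3′ site 6 numbers were skipped, against 2 beside the internal site. The CDCA peaks beside the 3′ site end at 124457242 and start at 124488562, and where between them the numbers fell is unknown. On the background of 60 seen in control, a peak needs a height of 365 for a fold of 6, and on a background of 3.26 it needs 24.6. The CDCA background at these sites is unknown and CDCA heights are scaled differently. Why the sites are missing from the CDCA list was not tested. Strong control peaks without a CDCA partner are common: 65.1% of all strong control peaks overlapped a CDCA peak, and 4 of the 6 integrin ones did. For strong CDCA peaks it was 80.9% of all and 4 of the 4 integrin ones.

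**Figure D4:**
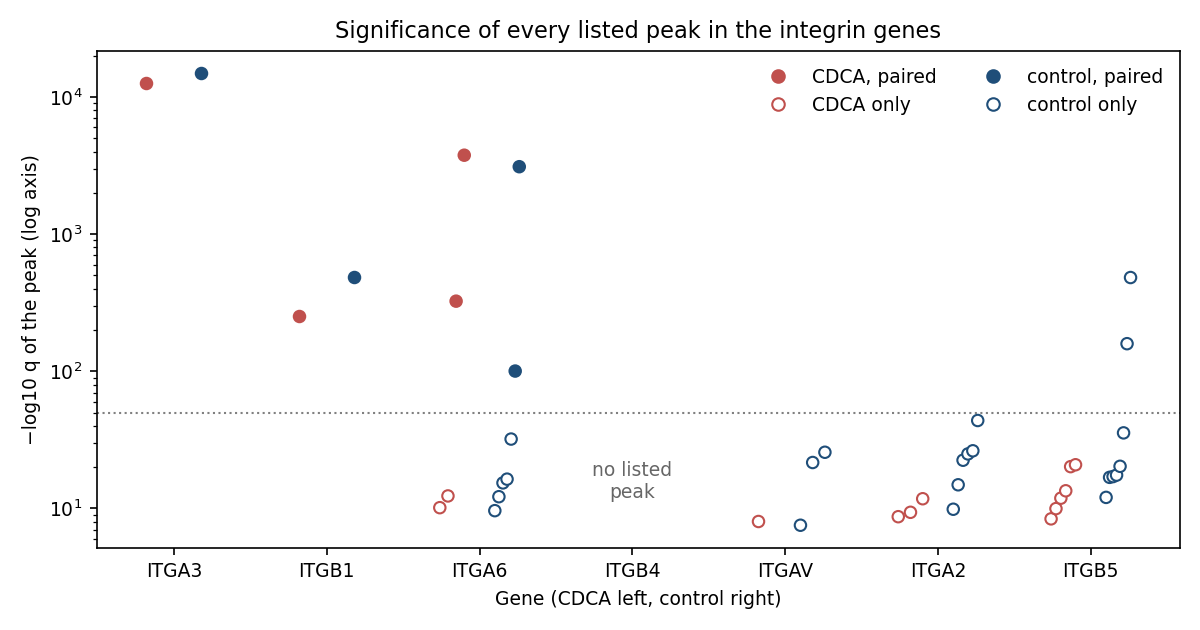
The −log10 q (log axis) of each listed peak by gene, CDCA left and control right, filled where the peak overlaps one of the other list. The filled points all lie above the dotted line at 50, and the open points above it are the 2 control-only peaks of ITGB5.

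No weaker integrin peak was listed at the same place in both cell populations. Of the peaks with a −log10 q below 50, 0 of 12 in the CDCA list and 0 of 20 in the control list overlapped the other list, and a count of 0 allows a share of up to 25% in CDCA and 15% in control, taking 3 counts as the limit. The share among all such peaks was 13.1% in the CDCA list and 9.66% in the control list, so the absence of overlap is within what these numbers allow. The fold of these integrin peaks ran from 6.21 to 9 in CDCA and from 6.07 to 18.9 in control. Summit heights ran from 11.5 to 40.9 in CDCA and from 14.7 to 55.2 in control.

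In ITGA6, the weaker peaks that the 2 lists hold fell in different stretches of the gene. The 2 CDCA peaks lay at 10.5% and 23.3% of the span, and the 5 control peaks between 34.2% and 41.0%, with at least 8489 bp between the lists. The control peak with the highest fold of this group, at 173319993 to 173320203, had a fold of 14.0 and a −log10 q of 32.1. Across the CDCA peaks the control list skipped 3 peak numbers, and across the control peaks the CDCA list skipped 3. Where these numbers fell is unknown, so a difference in place between the conditions is not read from these peaks.

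ITGA2, the collagen receptor chain, had 3 CDCA and 6 control peaks, none of them shared. The CDCA peaks lay in the 5′ part of the span, at 1.25%, 19.7% and 40.6%, with heights of 14.1, 14.1 and 14.7. Control cells had 3 peaks close to the 3′ end, at 95.6%, 96.1% and 98.8% of the span, with folds of 7.29, 7.12 and 6.24. The other control peaks lay at 26%, 43.8% and 64.5%, and the one at 52331350 to 52331581 on chromosome 5 had the highest fold of the gene, 18.9. The 3′ control peaks had higher local backgrounds, 5.2 to 8, than the other control peaks of ITGA2, 1.2 to 1.74. Between the CDCA peaks on either side of the 3′ group 6 peak numbers were skipped, over a stretch that also holds the control peaks at 43.8% and 64.5%. Where in that stretch the skipped numbers fell is unknown.

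ITGAV, the vitronectin receptor alpha chain, had weak peaks alone, as ITGA2 did, and fewer of them. The single CDCA peak lay at 36.9% of the span with a fold of 7.17 and a −log10 q of 8.11. The 3 control peaks lay at 42.0%, 43.3% and 59.5%, with folds of 8.83, 6.07 and 9.68. The lists came no closer than 4462 bp to each other in this gene. Across the CDCA peak the control list skipped 2 peak numbers, and across the control peaks the CDCA list skipped 1.

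The weaker ITGB5 peaks, 6 in CDCA and 6 in control, lay closest to each other near the middle of the gene. There the CDCA peak at 124536473 to 124536710, with a fold of 6.99, was separated by 212 bp from the control peak at 124536923 to 124537122, with a fold of 7.05. In the last 10% of the span, CDCA had 2 peaks with folds of 7.47 and 6.21 where control had the strong 3′ site alone. The most significant CDCA peak of the gene, at 124582216 to 124582473, lay at 27.4% of the span. It had a fold of 8.99 and a −log10 q of 20.8.

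ITGB4, the hemidesmosome beta chain, had no listed peak in 37 kb of span. Numbers skipped between the listed peaks on either side of the span came to 2 in CDCA and 3 in control. Absence from a list is not absence of the transcript or the mark. Fewer methylated sites and less ITGB4 RNA cannot be told apart in these lists.

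The most significant site lay near the 3′ edge in ITGA3, ITGA6 and, in control, ITGB5. It lay elsewhere in the other genes with peaks. In ITGA2 and ITGAV it lay between 36.9% and 43.8% of the span in both lists, and in ITGB5 at 27.4% in CDCA. ITGA3 had no other peak, the 3′ site of ITGB5 had a lower fold (11.7) than the internal one (31.8), and the only ITGB1 site lay at 66.0% of the span. In the last 10% of the spans lay 4 of 16 CDCA peaks (25%, 7.27 to 52.4) and 6 of 26 control peaks (23.1%, 8.97 to 43.6). Of the strong peaks, 2 of 4 in CDCA and 3 of 6 in control lay there. No such share is given for other genes, whose spans were not used. Spans include introns, and no hg19 exon annotation was used, so whether a peak lies in an exon, an intron or a UTR is not stated.

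No peak crossed the edge of a span. The peaks just inside an edge were those of ITGA3 given above, a control peak of ITGA2 at 1317 bp from the 3′ edge, and a CDCA peak of ITGA2 at 1329 bp from the 5′ edge. The nearest one outside was a control peak 4369 bp past the 3′ edge of ITGB1, with a fold of 6.09 and a −log10 q of 54.3, followed by control peaks 5017 bp past ITGB4 and 5077 bp past ITGA6. The lists carry no strand, so signal from overlapping genes cannot be separated from that of the integrins. In a GRCh38.p14 gene table, used for names alone and matching all 7 symbols, no gene overlapped ITGA3 or ITGAV. GALK1 overlapped ITGB4, the snoRNA SNORA86 and the pseudogene AK3P5 lay on ITGB1, and ITGA6-AS1 and PDK1-AS1 overlapped ITGA6. ITGA2 was overlapped by ITGA2-AS1 and 1 more lncRNA, and ITGB5 by 2 lncRNAs and the pseudogene ENO1P3.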

How the data were processed

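Per the labels' protocols, RNA depleted of ribosomal RNA went into NEBNext Ultra libraries, which were sequenced as pairs on an Illumina platform. MACS2 2.1.0, TopHat2 2.0.13 and hg19 appear in the submitters' processing notes, with no step assigned to them. The authors deposited 1 peak table per MeRIP library: summit height is a signal, significance is −log10 of p and of q, and fold enrichment is a ratio, per the file headers. Which input, thresholds and filters made the lists is not given in the sources used here.

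Peaks were assigned by summit to the 7 spans. They were shared at an overlap of at least 1 bp, and paired when each was the largest overlap of the other. Background was height plus 1 over fold, minus 1. Skipped peak numbers were counted between listed neighbours. The members, the lists and the level of 50 were chosen with earlier results of these data known. Every integrin gene is named. Peaks with values are the most significant of each gene and list, all paired and library-specific ones past that level, and some weaker peaks picked out after their values were seen. Genes of like pattern and other adhesion genes were not analysed here. The overlap step gave the right answer for 100% of 20000 simulated peaks. The tools were scipy 1.17.1, pandas 2.3.3, numpy 2.4.6 and, for figures, matplotlib 3.10.9, under Python 3.11.15.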

Additional observations from a re-analysis of the deposited data

How the results depend on the processing

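Of 52 recomputed values, 44 stayed within the interval of the reported value without a change of direction. For a fold ratio at a gene's leading site, the limit was 1.5 times instead. Many of these intervals are wide, so staying inside one is a weak check. The share of pairs higher in CDCA (19.4 to 99.4) counted as unchanged although it was 75% by fold and 50% by height. So did the integrin total (30.8 to 119), which went from 61.5% to 40% of control with peaks under a −log10 q of 20 removed. Assigning peaks by any overlap with the span, pairing by 50% reciprocal overlap or by summits within 100 bp changed no value. The fold ratio at ITGA3 reversed to 0.819 when summit height replaced fold enrichment. The share of CDCA integrin peaks that overlap a control peak moved to 66.7% at a −log10 q of at least 20, to 100% at 50 and to 66.7% at a fold of at least 10. The control share moved to 66.7% at a −log10 q of at least 50, since the weaker, unshared peaks then drop out. At a fold of at least 10, 100% of 2 pairs were higher in CDCA, and 66.7% of 3 CDCA peaks lay in the last 10% of the span. With a −log10 q of 50 as the minimum, 50% of control peaks lay there. Fewer peaks enter each of these thresholds. Centring ratios on the median of all pairs was added after the values were seen. Division by that median, 0.928, raises every ratio, so those of ITGA3 and ITGA6 could not reverse. The ITGB1 ratio became 0.774. No paired analysis was possible because there was 1 library per condition. The weak peaks rested on 17 to 64 fragments at their summits, which limits their precision.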

Other observations

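Among the listed peaks next outside the spans, 5 sites were listed in both cell populations. The fold was lower in CDCA at 3 of them, against 55.7% of all pairs, and higher at 2. Past the 3′ edge of ITGA2, by 14889 bp in CDCA and 14897 bp in control, a site at 52405757 to 52406037 in CDCA and 52405746 to 52405990 in control had folds of 7.07 in CDCA and 9.85 in control. Before the 5′ edge of ITGB5, a site at 124687788 to 124688713 in CDCA and 124687744 to 124688700 in control had folds of 6.60 in CDCA and 8.23 in control. Past the 3′ edge of ITGB1, a site at 33176397 to 33176603 in CDCA and 33176214 to 33176563 in control had folds of 6.03 in CDCA and 15.5 in control. Past the 3′ edge of ITGB5, a site at 124456427 to 124457242 in CDCA and 124456452 to 124457164 in control had folds of 13.9 in CDCA and 10.6 in control. Past the 3′ edge of ITGA3, by 59189 bp in CDCA, a site at 48226590 to 48227749 in CDCA and 48227041 to 48227647 in control had folds of 21.8 in CDCA and 10.4 in control. Control cells alone had a listed peak of fold 32.2 on chromosome 5 at 52273164 to 52273562, 11637 bp before the 5′ edge of ITGA2. CDCA-treated cells alone had one of fold 16.8 on chromosome 17 at 73702323 to 73703218, 14002 bp before the 5′ edge of ITGB4. The transcripts these sites belong to were not identified here, and they were picked out after their values were seen.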
